A study of Mus musculus with 3 samples.

Results

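The cell cycle and proliferation genes described here were 40 genes, found by symbol among the 32285 genes of the count matrices, and each had at least 1 unique molecular identifier (UMI, 1 captured RNA molecule) in the data. By their known roles, 20 were G2/M genes, which act in mitosis or in the approach to it, 15 were S-phase genes, which act in DNA replication or in entry to it, and 5 were others, namely the D-type cyclins Ccnd1 and Ccnd2, Cdk2, Stmn1 and Diaph3. They were measured in single cells of full-thickness dorsal skin from wild type female C57BL/6J mice, 8 weeks old when the study began, in 3 droplet libraries, 1 for each condition. The CON mice were not irradiated, and by the study's description they received the vehicle ointment. The UV mice were irradiated every other day over 12 weeks with a mixture of UVB, at 3.5 mW/cm2 and 290 to 315 nm, and UVA, at 0.60 mW/cm2 and 315 to 400 nm. By the same description the UV mice also received the vehicle. The Rux mice had the same irradiation, followed each time by an ointment with 1.5% ruxolitinib, an inhibitor of the JAK1 and JAK2 kinases. The skin was taken 24 h after the last exposure. How many mice stood behind a library was not given in the sources used here, so the condition, the mice and the library cannot be told apart in any comparison below, and no test across samples was possible.

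A cell that divides first copies its DNA in S phase and then segregates it in mitosis, and each step draws on genes that are transcribed largely for it. The licensing of replication origins uses the MCM helicase subunits, the supply of nucleotides uses enzymes such as Rrm1, Rrm2, Tyms and Tk1, and mitosis uses cyclins, kinases of the spindle and proteins of the kinetochore. In skin, division is known from the basal layer of the epidermis and, during hair growth, from the matrix at the base of the hair follicle, while dermal fibroblasts of adult mice divide rarely and neutrophils and muscle fibres do not divide.

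The promoters of 31 members were found in RefSeq, in build GRCm38.p6. Each was taken as the 250 bases before the transcription start and the 50 after it. The promoters are shown because most G2/M members and some S-phase members shared letters. These letters did not sort every member by its role. Letters were searched on both strands for the CHR, here TTTGAA or TTCGAA, for the CCAAT box, here CCAAT, and for E2F-type letters, here TTTGGCGC, TTTCGCGC, TTCCCGCC or TTTCCCGC, and matches were allowed to overlap. Of 17 G2/M members with a window, 14 held a CHR and 16 a CCAAT box, or 82.4% and 94.1% of them, against 19.2% and 37.4% of all 32851 windows in the table. E2F-type letters were in 1 of these 17 windows, that of Cdk1, and in 3.49% of all windows. Of 12 S-phase members, 6 held E2F-type letters, 2 a CHR and 8 a CCAAT box. Birc5 of the G2/M set and Tyms, Tk1, Ccne1 and E2f1 of the S-phase set held none of these letters. A match describes the letters and is not evidence of binding. Below are the windows of Mki67, the nuclear antigen used to mark proliferating cells, of Top2a, the topoisomerase that untangles sister chromosomes, and of Mcm6, a subunit of the replicative helicase, with every match in capitals.
Mki67 (chr7:135716330-135716629, minus strand): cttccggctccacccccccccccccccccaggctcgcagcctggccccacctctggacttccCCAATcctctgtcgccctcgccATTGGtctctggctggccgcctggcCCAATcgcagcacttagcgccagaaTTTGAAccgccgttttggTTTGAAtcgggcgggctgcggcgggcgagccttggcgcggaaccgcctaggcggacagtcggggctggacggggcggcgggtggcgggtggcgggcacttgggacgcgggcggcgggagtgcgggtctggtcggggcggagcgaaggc
Top2a (chr11:99024140-99024439, minus strand): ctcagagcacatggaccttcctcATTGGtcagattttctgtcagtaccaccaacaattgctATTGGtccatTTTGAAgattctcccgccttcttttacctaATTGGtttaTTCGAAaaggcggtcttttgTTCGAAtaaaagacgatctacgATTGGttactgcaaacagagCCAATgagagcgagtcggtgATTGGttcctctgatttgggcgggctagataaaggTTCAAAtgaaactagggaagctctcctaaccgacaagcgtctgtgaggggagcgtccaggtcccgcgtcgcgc
Mcm6 (chr1:128359656-128359955, minus strand): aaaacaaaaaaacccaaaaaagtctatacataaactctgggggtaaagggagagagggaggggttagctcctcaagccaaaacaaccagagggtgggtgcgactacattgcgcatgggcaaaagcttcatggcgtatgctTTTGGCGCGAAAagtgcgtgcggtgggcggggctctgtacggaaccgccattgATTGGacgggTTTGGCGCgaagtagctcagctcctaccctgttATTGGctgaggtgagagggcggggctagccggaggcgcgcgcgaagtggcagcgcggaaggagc
In capitals, the Mki67 window held 2 CHR and 3 CCAAT matches, the Top2a window 4 and 6, and the Mcm6 window no CHR, 2 CCAAT and 3 E2F-type matches, of which 2 overlapped. The genes themselves lie on chromosome 7 from 135689784 to 135716361 (Mki67), chromosome 11 from 98992943 to 99024189 (Top2a) and chromosome 1 from 128331590 to 128359664 (Mcm6), all on the minus strand in the annotation of the same build.

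The matrices held 13170 barcodes in CON, 12411 in UV and 11287 in Rux, with 131570327 to 165337289 UMIs per library. After filters on cells, 10777, 10231 and 9299 cells were kept, with a median of 7540, 7639 and 9430 UMIs. Between any 2 libraries 28 to 50 barcodes were shared. Although the mice were labelled female, the Y-linked gene Ddx3y stood at 111 to 121 CPM (the usual unit of counts scaled to library size) in every library and Xist at 0.0927 to 0.120 CPM, so all 3 libraries went against that label in the same way.

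Cells were sorted by marker genes into classes, called epithelial-like, fibroblast-like and so on, from clusters made without the cell cycle genes. A cell was counted as dividing when at least 3 different G2/M members had a UMI after its counts had been thinned at random to 2000 UMIs, which takes away differences in depth, and cells with fewer UMIs were left out. This counts cells with mitotic transcripts and is not a direct measure of division. Intervals of shares, levels and log2 ratios of levels below are exact 95% intervals, those of ratios of shares are approximate ones on a log scale, and the limit given for a count of 0 is 3 cells over the total. All cover counting error only. Skeletal muscle-like and neutrophil-like cells, which should hold no dividing cells, had 1 of 108, 2 of 32 and 0 of 231 cells counted as dividing in CON, UV and Rux, with median depths of 2135, 2306 and 3203 UMIs (exact intervals of 0.0234 to 5.05% in CON and 0.766 to 20.8% in UV; the count of 0 in Rux allows up to 1.30%). The 3 cells so counted were all muscle-like, with epithelial markers at a median of 5513 CPM, against 540.0 in the other muscle-like cells, and muscle markers at 22688, against 147059. None of the neutrophil-like cells was counted, so these shares are a weak reference, above all in UV with its 32 cells.

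Over all cells, dividing cells made up 1093 of 9643 cells in CON, or 11.3% (10.7 to 12.0%), 642 of 9212 in UV, or 6.97% (6.46 to 7.51%), and 383 of 8515 in Rux, or 4.50% (4.07 to 4.96%). The share in UV was 0.615 times that in CON (0.560 to 0.675), and the share in Rux was 0.645 times that in UV (0.571 to 0.730). Without thinning the shares were 22.3%, 13.5% and 9.15%. The 3 libraries held different mixes of cells: epithelial-like cells made up 34.6%, 19.5% and 17.2% of the cells in CON, UV and Rux, and fibroblast-like cells 30.3%, 48.8% and 53.3%. When every class was given the weight it had in CON, the shares were 11.3%, 12.2% and 8.82%, so UV then lay above CON by a ratio of 1.08, and the lower value of UV over all cells held only with each library's own mix. The same weighting left Rux below UV.

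Across all cells, each of the 40 members had a lower level in UV than in CON and a lower level in Rux than in UV, where a level is the summed UMIs of the gene over the summed UMIs of the cells, in CPM. A gene is called here when its levels differ at least 2-fold, with at least 30 UMIs in the 2 libraries together, and this compares 2 libraries and not the conditions. Between UV and CON 1 member was called lower, where 3.79% of all 20296 genes were, and none higher, where 9.02% were. That member was Ccnd1, the D-type cyclin that drives cells out of G1, with 161 CPM in CON, 79.5 in UV and 56.4 in Rux. Between Rux and UV no member was called in either direction, against a background of 5.30% lower and 2.91% higher. The members' median log2 ratio was −0.56 for UV over CON and −0.61 for Rux over UV, and the medians of all genes were −0.03 and −0.11. These levels carry each library's own mix of cells, as the shares over all cells do. Within epithelial-like cells the members' medians were −0.17 and −0.33, and within fibroblast-like cells −1.43 and −0.37. Both contrasts share the UV library and are therefore not independent.

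Most of the dividing cells were epithelial. Epithelial-like cells held 92.6%, 93.5% and 91.9% of the dividing cells of CON, UV and Rux. Of the UMIs of the G2/M members, between 64.3% (Aurka, a spindle kinase) and 81.7% (Cenpf, a kinetochore protein) lay in dividing cells, which is in part the count's own rule, while dividing cells were 7.74% of cells and held 19.2% of all UMIs. The S-phase members were not part of the rule, and between 33.2% (E2f1, a transcription factor of the G1/S step) and 64.4% (Hist1h1b, a replication-dependent linker histone) of their UMIs lay in the same cells. Among the other members, Stmn1, which destabilises microtubules, had 58.0% of its UMIs there and Diaph3, a formin of the cytokinetic furrow, 57.5%. The cyclins Ccnd1 and Ccnd2 had 31.2% and 39.6%, and Cdk2, the kinase partner of cyclins E and A, 27.9%.

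**Figure D1:**
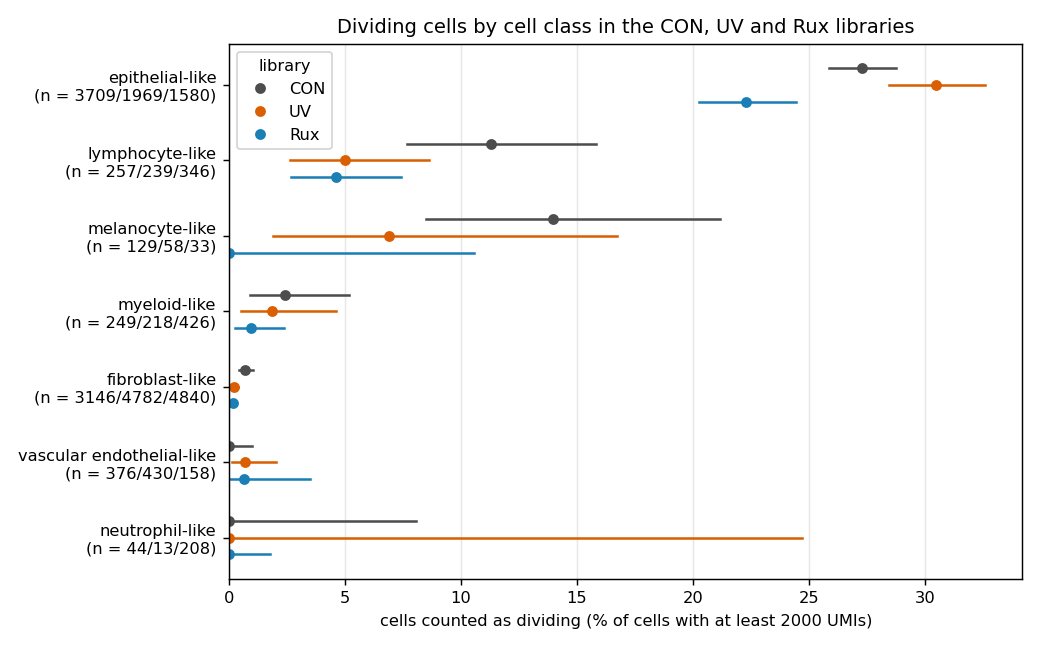
Share of cells counted as dividing (horizontal axis, % of cells with at least 2000 UMIs) in 7 cell classes, with points for the CON, UV and Rux libraries, lines for exact 95% intervals of counting error, and the numbers of cells in the order CON/UV/Rux. The epithelial-like shares lie at 27.3%, 30.5% and 22.3%, and the fibroblast-like shares all lie under 1%.

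Among epithelial-like cells, 1012 of 3709 were dividing in CON, or 27.3% (25.9 to 28.8%), 600 of 1969 in UV, or 30.5% (28.4 to 32.6%), and 352 of 1580 in Rux, or 22.3% (20.2 to 24.4%). The share in UV was 1.12 times that in CON (1.03 to 1.22) and the share in Rux was 0.731 times that in UV (0.653 to 0.819). The first difference was small and was lost when 5 members were required, with 14.1% in CON and 14.3% in UV. The S-phase members gave another order between CON and UV: cells with at least 3 of them were 26.4% (25.0 to 27.8%), 24.2% (22.3 to 26.2%) and 17.5% (15.6 to 19.4%) in CON, UV and Rux. By either set of members Rux was lowest. Of the dividing epithelial-like cells, 49.8%, 43.3% and 47.7% also held 3 S-phase members.

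**Figure D2:**
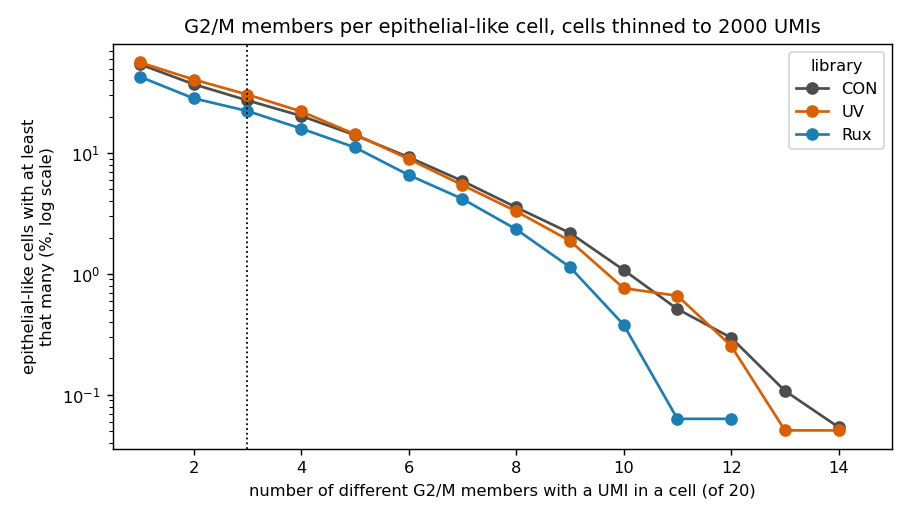
Share of epithelial-like cells (vertical axis, %, log scale) with at least the number of different G2/M members given on the horizontal axis, in cells thinned to 2000 UMIs, with 1 line per library. The Rux line lies below CON and UV at every number up to 12, the dotted line marks the 3 members used for the count, and CON and UV lie close together at 5 members, at 14.1% and 14.3%.

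In epithelial-like cells the levels of the G2/M members differed less than 2-fold between UV and CON and between Rux and UV. Mki67 stood at 282 CPM in CON, 223 in UV and 178 in Rux, and Top2a at 275, 261 and 212 CPM. Ube2c, the ubiquitin-conjugating enzyme of the anaphase-promoting complex, was the member furthest above 0 between UV and CON, at 108, 140 and 109 CPM and a log2 ratio of 0.37 (0.33 to 0.42). Of the 20 G2/M members 8 lay above 0 and 12 below between UV and CON, and all 20 lay below 0 between Rux and UV, with a median log2 ratio of −0.31. No member was called between UV and CON, where 8.06% of genes were called higher and 3.18% lower, or between Rux and UV, where 2.05% and 4.41% were.

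The S-phase members of epithelial-like cells were lower in UV than in CON for 13 of 15 and lower in Rux than in UV for 14 of 15. Mcm2 and Mcm4, subunits of the helicase, had 38.7 and 62.5 CPM in CON, 26.7 and 42.9 in UV, and 20.4 and 30.8 in Rux. Hist1h1b, the S-phase member with most UMIs in these cells, stood at 491, 435 and 463 CPM and was the exception between Rux and UV, with a log2 ratio of 0.09 (0.07 to 0.12). Rrm2, the small subunit of ribonucleotide reductase, was above 0 between UV and CON at 51.6, 57.7 and 46.9 CPM, and Ccne1, a cyclin of the G1/S step, was at 12.2 CPM in both. All 6 helicase subunits were highest in CON and lowest in Rux, and Rrm2 was highest in UV.

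Of the other members, Ccnd1 was 209 CPM in CON, 121 in UV and 94.3 in Rux in epithelial-like cells, with log2 ratios of −0.78 (−0.82 to −0.74) and −0.36 (−0.42 to −0.30). Ccnd1 was lower in UV than in CON in 11 of the 12 epithelial-like clusters with 30 UMIs of it. Ccnd2, the second D-type cyclin, stood at 593, 441 and 381 CPM, and Stmn1, the member with most UMIs in these cells, at 1033, 813 and 599 CPM. Diaph3 had 180, 203 and 129 CPM, and its log2 ratio of −0.65 (−0.70 to −0.60) was the lowest of the members between Rux and UV. Each of these 4 genes was lowest in Rux.

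The same levels were taken apart for cells counted as dividing and for the others. Within dividing epithelial-like cells, 31 of 40 members lay above 0 between Rux and UV, with a median log2 ratio of 0.05, and 4 of 40 lay above 0 between UV and CON, with a median of −0.26. Within those not counted as dividing, all 40 lay below 0 between Rux and UV, with a median of −0.73. The G2/M members set this split. Of the members outside the rule, the 15 S-phase members had medians between Rux and UV of 0.06 in dividing and −0.70 in other cells, and the 5 others had −0.15 and −0.31.

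The epithelial-like cells fell into 13 clusters, and most dividing cells lay in 5 of them. Clusters 8, 12, 14, 16 and 23 together held 70.2%, 79.5% and 78.7% of the dividing epithelial-like cells of CON, UV and Rux. Of all epithelial-like cells they held, in that order of clusters, 7.36%, 18.1%, 0.647%, 13.3% and 4.15% in CON. In UV they held 17.4%, 7.11%, 20.5%, 5.43% and 10.8%, and in Rux 18.4%, 2.34%, 17.7%, 3.67% and 8.1%. Cluster 16 was hair matrix-like, cluster 8 inner root sheath and hair shaft-like, and cluster 23 was led by the hair shaft genes Krtap8-1 and Krt35. Clusters 12 and 14 had no compartment name and were led by Kcnk10, Itga2 and Epgn and by Wincr1 and Fgf5. Cluster 12 held 671, 140 and 37 cells of CON, UV and Rux and cluster 14 held 24, 403 and 280, so each may stand for a library as much as for a cell type.

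The hair matrix-like cluster had the highest share of dividing cells in all 3 libraries, 262 of 492 or 53.3% in CON (48.7 to 57.7%), 63 of 107 or 58.9% in UV (49.0 to 68.3%) and 39 of 58 or 67.2% in Rux (53.7 to 79.0%). Its intervals overlapped between each pair of libraries. The members' log2 ratios between UV and CON ran from −0.45 to 0.57 in this cluster, and between Rux and UV Ccnd1 was the lowest, with −1.04 and levels of 258, 209 and 101 CPM. The inner root sheath and hair shaft-like cluster had 44.3% (38.3 to 50.4%), 37.4% (32.3 to 42.8%) and 29.9% (24.7 to 35.5%) in CON, UV and Rux, and its cells with 3 S-phase members were 42.9%, 20.8% and 18.6%. In the Krtap8-1 cluster the shares were 28.6%, 28.8% and 18.8%. Cluster 12 had 41.4%, 32.9% and 32.4%, and cluster 14 had 20.8%, 44.4% and 41.1%, the first of these over 24 cells. Without clusters 12 and 14 the shares over epithelial-like cells were 24.2%, 26.3% and 17.8%. With the clusters weighted as in CON they were 27.3%, 31.3% and 24.1%, in the same order of libraries. In that weighting cluster 17, described below, counted for 13.3% and rested on 56 cells in UV, while cluster 14 counted for only 0.647%. The weighting was not repeated without cluster 17.

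**Figure D3:**
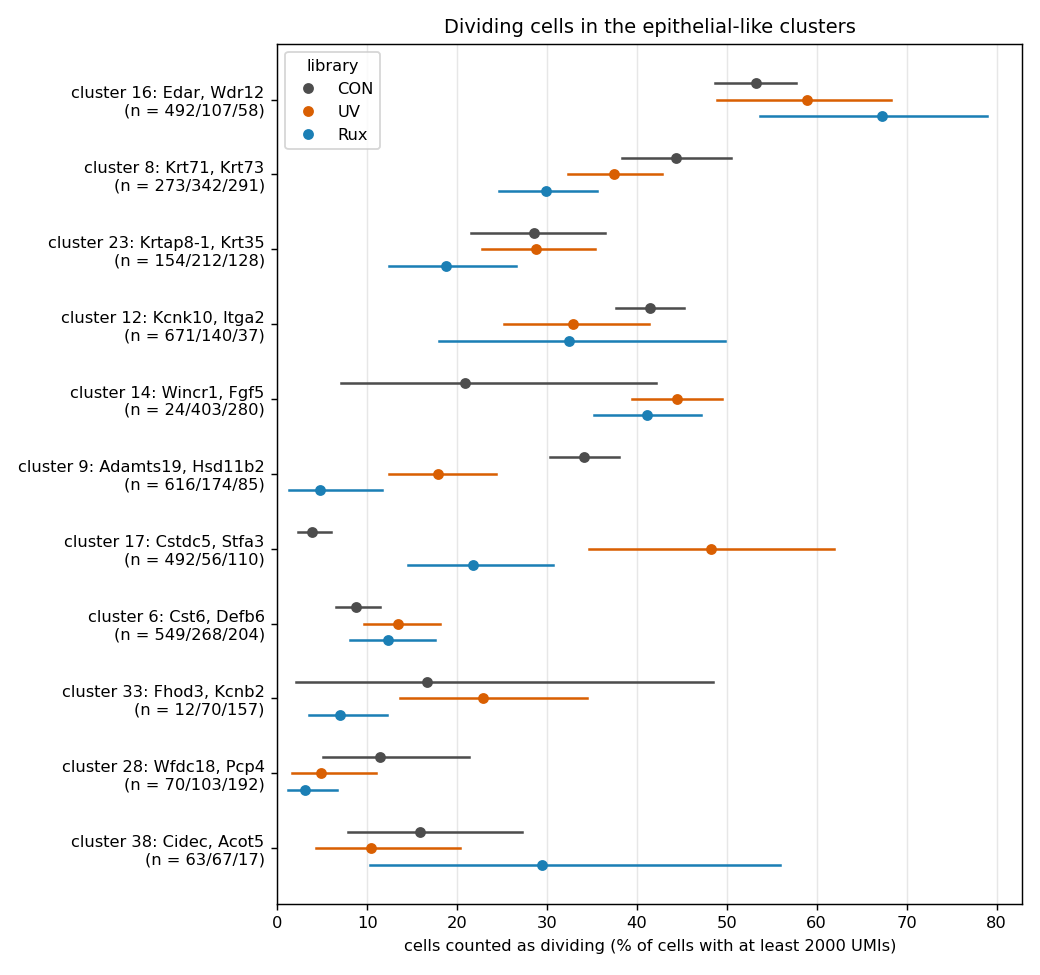
Share of cells counted as dividing (horizontal axis, % of cells with at least 2000 UMIs) in 11 epithelial-like clusters, each named by 2 of its leading genes, with points for libraries, lines for exact 95% intervals of counting error and cell numbers in the order CON/UV/Rux. Cluster 17 goes from 3.86% in CON to 48.2% in UV and 21.8% in Rux, and cluster 9 from 34.1% to 17.8% and 4.71%.

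The cluster with the widest gap between libraries was the basal interfollicular-like cluster 17, which was singled out among the 13 after its values were seen. All 8 basal markers were detected in it, at a summed 27579, 30384 and 30060 CPM in CON, UV and Rux, and its leading genes also included the stefin genes Cstdc5, Stfa3 and Stfa1. Of its cells 19 of 492 were dividing in CON, or 3.86% (2.34 to 5.97%), 27 of 56 in UV, or 48.2% (34.7 to 62.0%), and 24 of 110 in Rux, or 21.8% (14.5 to 30.7%). Cells with 3 S-phase members made up 4.47%, 17.9% and 19.1% of the cluster. Of all epithelial-like cells the cluster held 13.3%, 2.84% and 6.96% in CON, UV and Rux. Of the dividing epithelial-like cells it held 1.88%, 4.5% and 6.82%, so by that measure Rux was highest. For the shares within the cluster, the intervals of the 3 libraries did not overlap for the G2/M members. For the S-phase members CON lay below the others. The CON share of 3.86% lay within the interval of the CON reference cells, 0.0234 to 5.05%. Krt6a, a keratin of stressed epidermis, followed the order of the G2/M shares at 60.3, 1034 and 787 CPM. Markers of some other compartments did so too. The 8 of hair follicle stem cells and outer root sheath, Krt6a among them, had 246, 1451 and 1161 CPM, none at 0. The 8 suprabasal ones had 1836, 3399 and 3350 CPM, 1 of them at 0 in each library. Infundibulum markers had 416, 639 and 465 CPM and sebaceous markers 91.9, 131 and 126. The hair matrix markers ran the other way, at 11.6, 10.3 and 10.9 CPM. So did those of inner root sheath and hair shaft, at 290, 248 and 264 CPM. The part of these genes in the result was not tested.

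This cluster depended on how the cells were clustered. With no doublet removal its shares were 3.84%, 51.8% and 22.9%, but under the strict filter the cluster of that name held only 10, 50 and 124 cells with 30%, 30% and 11.3% dividing. At a resolution of 0.8 and under the loose filter no cluster took the name, and with the cell cycle genes kept the cluster gathered dividing cells of every library, at 84.7%, 85.5% and 84.3%. A gate on the 8 basal markers over all epithelial-like cells, a class that itself comes from the clusters, also chosen after the data were seen, gave the same order of libraries at each of 3 levels. At 15000 CPM or more 27 of 714 cells were dividing in CON, or 3.78%, 36 of 163 in UV, or 22.1% (16 to 29.2%), and 33 of 265 in Rux, or 12.5% (8.73 to 17%). At 10000 CPM the shares were 5.54% (4.18 to 7.19%), 16% (12.1 to 20.5%) and 9.81% (7.13 to 13.1%). At 20000 CPM they were 3.94%, 36.7% (26.1 to 48.3%) and 14.8% (9.88 to 20.9%). The intervals of UV and Rux overlapped at 10000 and 15000 CPM, and those of CON and Rux at 10000 CPM. The same 8 markers gave cluster 17 its name and the gates are nested, so they are not separate support for the cluster's result. The cells within 20% of the middle gate numbered 239, 140 and 144.

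In cluster 17 the G2/M members were all higher in UV than in CON, each at least 2-fold. The same members define the count by which this cluster was singled out, so their rise is not a separate result. Mki67 had 69.3 CPM in CON, 363 in UV and 215 in Rux, Top2a 48.1, 439 and 246, and Ube2c 16.7, 260 and 148. Plk1, a kinase of mitotic entry, had the highest log2 ratio at 4.02 (3.12 to 5.15), from 11 UMIs in CON. In all 20 the levels ran from CON over Rux to UV. Between UV and CON 30 of 40 members were called higher and 1 lower, where 8.03% and 6.03% of 10604 genes were called. All 20 G2/M members are among the 30. The member called lower was Ccnd2, at 556, 254 and 409 CPM. In the study's staining the basal-layer index of Ki-67, the protein of Mki67, was lower after UV and partly restored toward control with ruxolitinib. Mki67 RNA was lowest in CON and highest in UV in cluster 17. Clusters 9 and 33, described below, had the same best compartment but did not reach the name. In cluster 9 Mki67 RNA was highest in CON and lowest in Rux. In cluster 33, with 12 cells in CON, it was not lower in UV than in CON. Over all epithelial-like cells it was highest in CON and lowest in Rux. The staining counted protein in tissue sections, and the differences in direction were not tested.

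The S-phase members of cluster 17 split. Rrm2 had 6.1 CPM in CON, 48.0 in UV and 50.9 in Rux, Hist1h1b 61.8, 379 and 395, and Pclaf, a partner of the replication clamp, 20.1, 185 and 130. The helicase gene Mcm6 had 40.1, 33.9 and 52.6 CPM, with a log2 ratio of −0.24 (−0.64 to 0.13) between UV and CON. Of the 15, 8 were called higher between UV and CON, and 12 lay above CON in both irradiated libraries. Between Rux and UV no member was called higher, against 2.51%, and Cenpf alone was called lower, against 2.07%, while the 20 G2/M members lay below 0 with a median of −0.78 and the S-phase members had a median of 0.08.

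Cluster 9, led by Adamts19, Hsd11b2 and Krt24 and with no compartment name, went the other way. It too was picked after its values were seen. All 8 basal markers were detected in cluster 9 as well, and basal interfollicular was its best compartment. Its score for that compartment stood 0.283 above the next, under the gap of 1 needed for a name. Its dividing cells were 210 of 616 in CON, or 34.1% (30.4 to 38%), 31 of 174 in UV, or 17.8% (12.4 to 24.3%), and 4 of 85 in Rux, or 4.71% (1.30 to 11.6%), and the 3 intervals did not overlap. Mki67 was 339, 205 and 151 CPM and Top2a 363, 240 and 88.1. Every one of the 40 members ran from CON over UV to Rux in this cluster. The G2/M members among them define the count by which the cluster was picked, so their order is not a separate result. Between UV and CON 4 members were called lower, against 3.05% of genes, and none higher, against 5.99%. Between Rux and UV 21 of 39 were called lower, against 5.87%, and none higher, against 2.26%. The infundibulum-like cluster 6 showed no such gap, with 8.74%, 13.4% and 12.3% dividing, and the sebaceous-like cluster 42 had 0 of 46, 0 of 23 and 0 of 1 cells. Cluster 33, led by Fhod3 and with no compartment name, also had basal interfollicular as its best compartment, with all 8 basal markers detected. Its score gap was 0.743, and 2 of 12, 16 of 70 and 11 of 157 of its cells were dividing in CON, UV and Rux. The UV shares of clusters 9 and 6 lay within the interval of the UV reference cells, 0.766 to 20.8%, which is too wide to decide whether they differ.

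**Figure D4:**
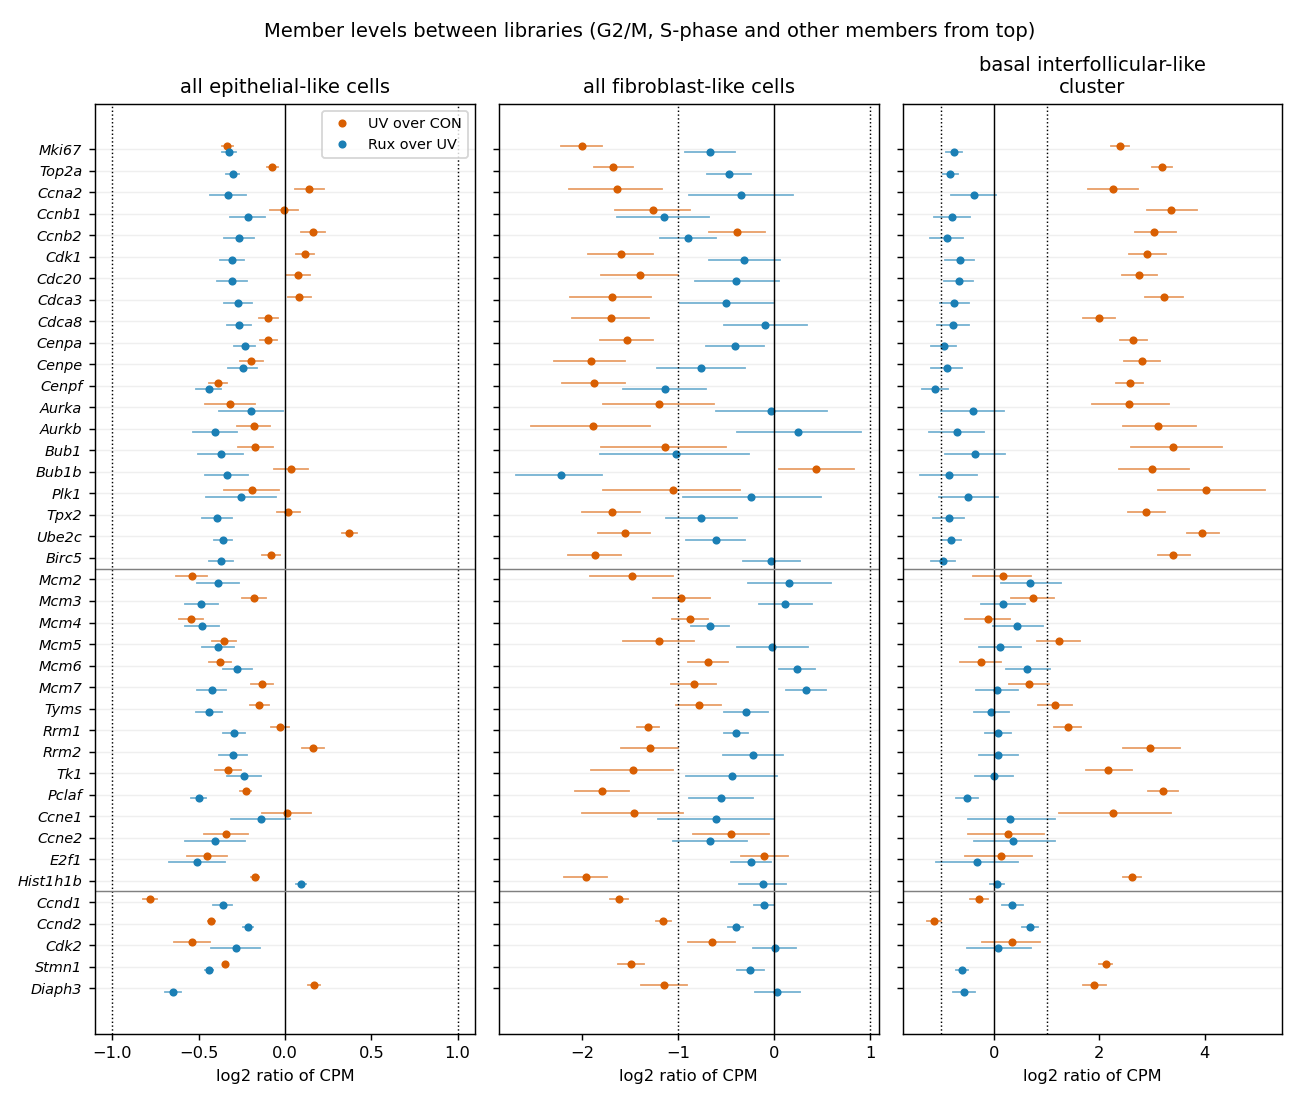
Log2 ratios of level (horizontal axes) for each member with at least 30 UMIs, UV over CON and Rux over UV, in all epithelial-like cells, all fibroblast-like cells and the basal interfollicular-like cluster, with lines for 95% intervals of counting error and dotted lines at 2-fold. The epithelial-like points all lie within 2-fold, most fibroblast-like points lie below −1 for UV over CON, and the 20 G2/M members of the cluster lie above 1, the scales of the 3 panels being different.

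Fibroblast-like cells were rarely counted as dividing. Dividing cells were 22 of 3146 in CON, or 0.699% (0.439 to 1.06%), 11 of 4782 in UV, or 0.230% (0.115 to 0.411%), and 8 of 4840 in Rux, or 0.165% (0.0714 to 0.325%). The share in UV was 0.329 times that in CON (0.160 to 0.677), and the ratio of Rux to UV, 0.719, had an interval from 0.289 to 1.78. For the class as a whole, no share lay above the upper bound or limit of the reference cells of its library. The Rux share of 0.165% did lie above the 0 of 231 reference cells counted in Rux. The CON share lay within their interval of 0.0234 to 5.05%. The UV share lay below theirs of 0.766 to 20.8%, and the Rux share under their limit of 1.30%. The 41 dividing cells carried fibroblast markers at a median of 20574 CPM, against 20819 in the others, and epithelial markers at 256 CPM, against 264. Their median doublet score was 0.0831, against 0.0616, and their median depth 20952 UMIs, against 8097. The part of doublets in the fibroblast-like count was not tested. Of the dividing cells 19 of 22 in CON, 10 of 11 in UV and 3 of 8 in Rux lay in cluster 11, led by Lrrc15, Col11a1 and Acan. There they were 13.6% of 140 cells in CON, 4.74% of 211 in UV and 0.613% of 489 in Rux. The CON share in cluster 11 lay above the upper bound of 5.05% of the CON reference cells. Without that cluster 3 of 3006, 1 of 4571 and 5 of 4351 cells were dividing, or 0.0998%, 0.0219% and 0.115%. The direction between Rux and UV then turned, with a ratio of 5.25 that rested on 1 dividing cell in UV. With no doublet removal, which also made new clusters, 5 of 3563, 3 of 5173 and 6 of 5057 cells were dividing, or 0.140%, 0.0580% and 0.119%. Without thinning the shares were 2.76%, 0.841% and 1.21%, and in both settings Rux lay above UV.

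Members were lower in UV than in CON across the fibroblast-like cells. Between UV and CON 30 of 40 were called lower, where 6.07% of 15825 genes were, and none higher, where 6.72% were, and the median log2 ratio was −1.43, against −0.12 for all genes. Of the 30, 18 were G2/M members, 8 S-phase members and 4 others. Mki67 had 26.2 CPM in CON, 6.52 in UV and 4.10 in Rux, a log2 ratio of −2.0 (−2.22 to −1.79), and Top2a had 24.9, 7.80 and 5.63. The next by size were Hist1h1b at −1.96, Cenpe, a motor of the kinetochore, at −1.91 and Aurkb, a kinase of chromosome segregation, at −1.89. Cenpf and Birc5 followed at −1.87 each, Birc5 being a partner of Aurkb and Cdca8 in the chromosomal passenger complex. After them came Pclaf at −1.79, Cdca8 at −1.70, Cdca3, a trigger of mitotic entry, at −1.69 and Tpx2, a spindle assembly factor, at −1.69.

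The G2/M members together had 183, 63.9 and 42.2 CPM in fibroblast-like cells of CON, UV and Rux. In neutrophil-like cells they had 125, 136 and 75.7 CPM, over 50, 22 and 228 cells, with 10, 15 and 4 of the 20 at 0, and the 12 epithelial markers stood at 1357, 859 and 692 CPM there, with 4 of the 12 at 0 in UV. The 12 epithelial markers together were also lower in the fibroblast-like cells of the irradiated libraries, at 546, 231 and 249 CPM, with none of the 12 at 0, and their part in the result was not tested. Without cluster 11 the G2/M members had 71.0, 41.8 and 36.5 CPM, 13 members were called lower, against 5.37%, and 1 higher, against 7.05%, and the median log2 ratio was −0.84. In cluster 11 alone 32 of 40 members were called lower between UV and CON, against 5.72%, and none higher, against 5.19%, and 24 of 34 between Rux and UV, against 4.42%, with none higher, against 2.10%. Mki67 stood at 148, 38.5 and 7.37 CPM there. Cluster 11 was picked after its values were seen, and the G2/M members define the count of dividing cells that set it apart. In the fibroblast-like cells not counted as dividing the median log2 ratio of the members between UV and CON was −1.01.

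The D-type cyclins were detected with more UMIs than these and differed in most fibroblast-like clusters. Ccnd1 had 112 CPM in CON, 36.5 in UV and 33.9 in Rux, a log2 ratio of −1.62 (−1.71 to −1.52) between UV and CON, and was lower in UV in 9 of 10 clusters. Ccnd2 had 144, 64.6 and 48.9 CPM, with −1.15 (−1.23 to −1.08), and was lower in UV than in CON and lower in Rux than in UV in all 10 clusters. Stmn1 had 52.9, 18.9 and 15.9 CPM. Without cluster 11 Ccnd1 was 98.1, 28.7 and 28.7 CPM and Ccnd2 154, 67.6 and 52.9, so both remained called lower in UV outside the cluster that held most dividing cells.

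Between Rux and UV 4 members were called lower in fibroblast-like cells, where 6.06% of 16506 genes were, and none higher, where 1.81% were. They were Bub1b, Bub1, which with it guards the spindle checkpoint, Ccnb1, the cyclin of mitotic entry, and Cenpf, with log2 ratios of −2.22, −1.02, −1.15 and −1.13. Bub1b was unlike the other members, at 3.46 CPM in CON, 4.70 in UV and 1.00 in Rux. It was the only member above 0 between UV and CON, and without cluster 11 it was called higher there, at 1.99, 4.23 and 0.982 CPM and a log2 ratio of 1.07 (0.59 to 1.62). Its fibroblast-like counts were 81, 183 and 56 UMIs. Bub1b lies on chromosome 2 from 118598211 to 118641591, and whether UMIs of an overlapping gene were counted with it was not tested.

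Dividing cells outside the epithelial-like and fibroblast-like classes were counted mainly, but not solely, in immune and pigment cells. In lymphocyte-like cells the dividing cells were 29 of 257 in CON, or 11.3% (7.69 to 15.8%), 12 of 239 in UV, or 5.02% (2.62 to 8.61%), and 16 of 346 in Rux, or 4.62% (2.67 to 7.40%). Their Top2a level was 192, 90.9 and 85.0 CPM and their Mki67 level 157, 80.7 and 73.6 CPM. The CON value was highest in each, while UV and Rux lay close together. The UV share of 5.02% lay within the interval of the 32 reference cells of UV. That interval, 0.766 to 20.8%, is too wide to decide whether the share differs from theirs. The CON share lay above the upper bound of 5.05% of the CON reference cells, and the Rux share above the limit of 1.30% of those of Rux. The Trdc cluster held 11 dividing cells of 95 in CON, but only 4 cells in UV and 1 in Rux, and in the largest lymphocyte-like cluster the shares were 10%, 5% and 4.98%.

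Melanocyte-like cells had 18 dividing of 129 in CON, or 14% (8.48 to 21.2%), 4 of 58 in UV, or 6.90% (1.91 to 16.7%), and 0 of 33 in Rux, which allows a share of up to 9.09%. The intervals of all 3 overlapped, and the UV share of 6.90% lay within the interval of the reference cells of UV, which is too wide to decide whether they differ. The CON share lay above the upper bound of 5.05% of the CON reference cells. In the dividing cells of CON the epithelial markers summed to 1475 CPM, against 808 in the others, with medians of 486 and 399. Their median doublet score was 0.116, against 0.0581. In UV the epithelial markers summed to 314 CPM in dividing cells, against 1179. The part of doublets in the melanocyte-like count was not tested. Cdk2 stood apart here, at 397, 396 and 456 CPM, against 28, 19.2 and 15.8 CPM in epithelial-like cells, while Mki67 was 124, 55.2 and 49.1 CPM. Myeloid-like cells had 6 of 249, 4 of 218 and 4 of 426 dividing, or 2.41%, 1.83% and 0.939%. All lay within the C1qa and Cd74 cluster 24, where the shares were 3.39%, 3.31% and 3.10%. The shares of the myeloid-like class lay within the intervals of the reference cells in CON and UV, of which that of UV is too wide to decide. In Rux the class share lay under the limit of 1.30%. Vascular endothelial-like cells had 0 of 376, 3 of 430 and 1 of 158, and neutrophil-like cells 0 of 44, 0 of 13 and 0 of 208, which allow shares of up to 6.82%, 23.1% and 1.44%. All cells but the epithelial-like had 81 of 5934, 42 of 7243 and 31 of 6935 dividing, or 1.37%, 0.580% and 0.447%.

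**Figure D5:**
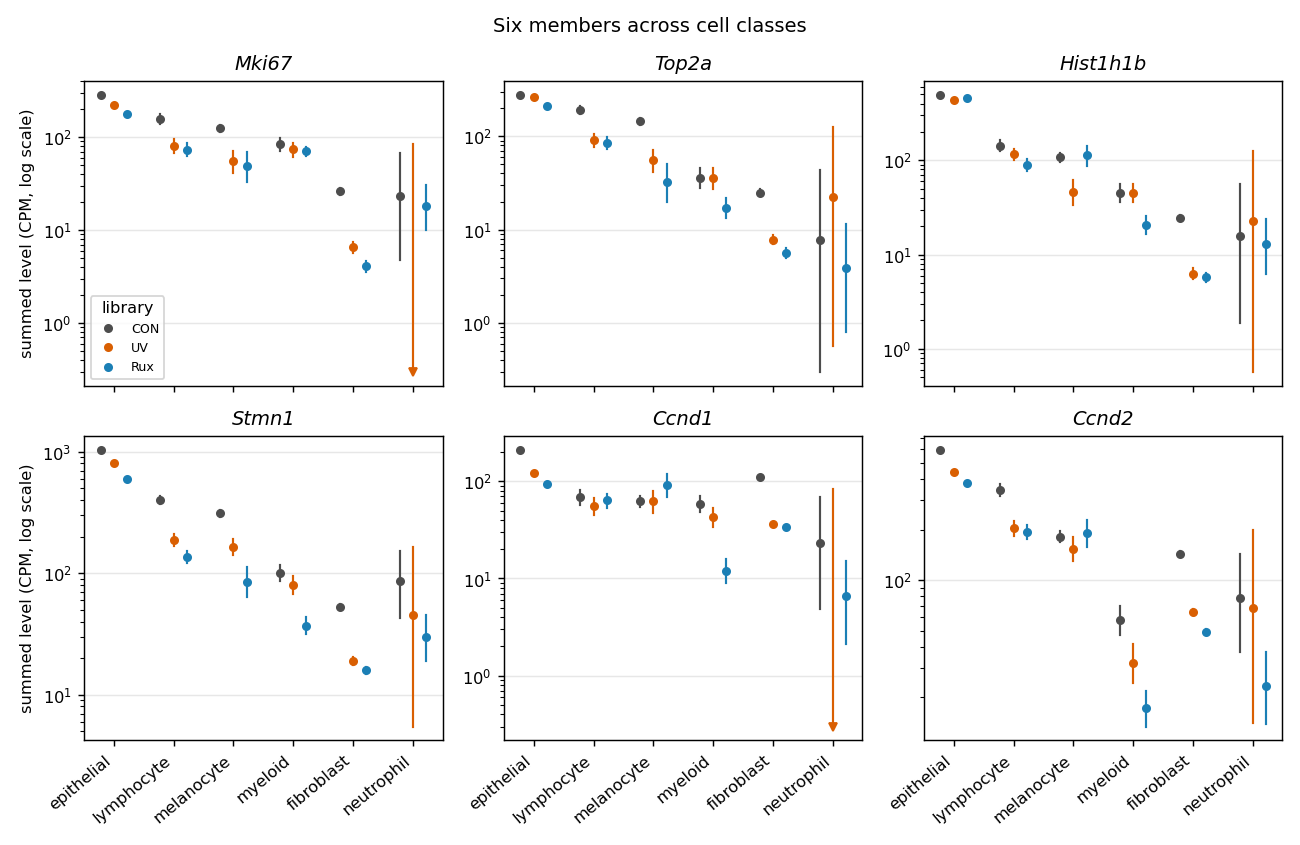
Summed level (vertical axes, CPM, log scale) of Mki67, Top2a, Hist1h1b, Stmn1, Ccnd1 and Ccnd2 in 6 cell classes, with points for the libraries and lines for exact 95% Poisson intervals of counting error; triangles mark a count of 0. Mki67 lies at 282, 223 and 178 CPM in epithelial-like cells and at 26.2, 6.52 and 4.10 CPM in fibroblast-like cells of CON, UV and Rux, and the neutrophil-like values have wide intervals.

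Other cell cycle genes, 95 that are not members, were counted in the same way. In epithelial-like cells 1 of 28 replication genes was called lower between UV and CON, namely Ung, which removes uracil from DNA, at 26.5, 11.6 and 7.70 CPM, and none of 44 mitosis genes or 23 genes of G1 control was called, where 8.06% of all genes were called higher and 3.18% lower. The largest among the mitosis genes was Anln, a scaffold of the cleavage furrow, at 64.5, 104 and 88.7 CPM. Between Rux and UV none was called, against 2.05% higher and 4.41% lower, and the furthest was E2f7, a repressor of E2F targets, at 8.12, 8.83 and 4.60 CPM. In fibroblast-like cells 11 of 28 replication, 25 of 44 mitosis and 5 of 23 G1 control genes were called lower between UV and CON, against 6.07% of all genes, and none higher, against 6.72%. Among them were Cdkn2a, which encodes p16 and the ARF protein, at 45.6, 8.01 and 22.8 CPM and Kif20b, a kinesin of cytokinesis, at 4.96, 1.10 and 1.59 CPM. Cdkn2a was the sole one of the 95 genes called higher between Rux and UV, against 1.81%, with a log2 ratio of 1.51 (1.33 to 1.69), while 5 were called lower, against 6.06%, among them Cdca2 and E2f7 at −1.75 and −1.57. The counts of Cdkn2a are per gene and do not separate its p16 transcript. The study's staining, with more p16-positive cells after UV in epidermis and dermis, measured protein, and the difference in direction was not tested.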

How the data were processed

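Dorsal skin cells of CON, UV and Rux mice were captured with droplet 3′ chemistry. The authors deposited filtered matrices of UMI counts per gene and cell, made with Cell Ranger and build mm10; the submitters' notes give version 6.1.2, the file headers 7.0.0. Everything below was computed from these counts.

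Barcodes were kept where 200 or more genes were detected and mitochondrial transcripts made up no more than 10% of UMIs, and likely doublets were removed with Scrublet (scanpy 1.11.5; expected rate 0.8% per 1000 barcodes). Clustering used Seurat 5.3.0 in R 4.3.3, with 2000 variable genes from which cell cycle genes were left out, 30 principal components, resolution 1.5 and no integration. Of 44 clusters 39 were named from marker lists, each needing at least 3 markers detected in at least 10% of cells; the naming thresholds and the basal marker gates were set after the clusters were seen, so a difference from the study may come from these rebuilt names. Cells were thinned to 2000 UMIs for shares and left whole for levels. The members and gene lists were chosen with earlier results of these data known. The rule for named genes took Mki67, Top2a, Ccnd1, Ccnd2, Stmn1, the member of each role with most UMIs, up to 10 members past 2-fold in each direction, and up to 4 other cell cycle genes per contrast by size of log2 ratio, all with at least 30 UMIs. Ube2c, Diaph3, Cdk2, Mcm2, Mcm4, Mcm6, Rrm2 and Ccne1, where outside this rule, and clusters 9, 11 and 17 were chosen after their values were seen. With 1 library per condition no test was made and no p-value is given. Intervals at 95% are exact for counts (Poisson), shares (Clopper-Pearson) and log2 ratios of levels (conditional binomial) and log-normal approximations for ratios of shares; a count of 0 is given the limit of 3 counts over the total. All cover counting error only. The scripts were tested on simulated data. Settings tried as alternatives were the filters, doublet removal, resolution, the depth of thinning, the number of members and the weighting of cells and clusters.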

Additional observations from a re-analysis of the deposited data

How the results depend on the processing

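Of 98 alternative values over 10 results, 85 stayed within the counting interval of the reported ratio or within 1.5 times the reported count, and 13 did not. The ratio of dividing shares over all cells, UV to CON, became 1.08 with classes weighted as in CON. The epithelial-like ratio of UV to CON became 1.02 when 5 members were required. The fibroblast-like ratio of Rux to UV of 0.719 turned direction in 3 settings. It became 2.05 with no doublet removal, 5.25 without cluster 11 and 1.44 without thinning. The value of 5.25 rested on 1 dividing cell in UV. The value of 1.44 was still inside the interval of the reported ratio, 0.289 to 1.78. In epithelial-like cells not counted as dividing, 2 members were called lower between Rux and UV, where 4.38% of 15810 genes were. None was called higher there, where 2.45% were, and 0 members were called in all epithelial-like cells. For fibroblast-like cells, the 30 members called lower between UV and CON became 18 lower with no doublet removal and 18 lower with equal weight per cell. Without cluster 11 they became 14, of which 13 were lower, against 5.37% of genes, and 1 higher, against 7.05%. The 4 called between Rux and UV became 2 under the loose filter, 1 with no doublet removal, 1 with equal weight per cell, 2 in cells not counted as dividing and 1 without cluster 11. The cause was not tested. No paired analysis was possible because each condition had 1 library, and for the same reason no replicate could be left out. Depth limits the small classes most: the 13 neutrophil-like cells of UV allow a dividing share of up to 23.1% by 3 cells over the total, or 24.7% as the exact upper bound.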
